A study of Mus musculus with 6 samples.

Results

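The 34 imprinted genes described here are the set outside the Peg10 cluster, and their DNA methylation was followed in blood stem and progenitor cells with and without an IDH1 knock-in allele. They were taken by name, 33 by their RefSeq symbol and Nespas by a synonym. CpG positions covered in all 6 libraries within the RefSeq extent of each gene and 5 kb to either side were grouped into windows of 1 kb, and a window needed at least 5 such positions. This gave 53 of the 25123 windows of that kind in the genome, at 28 of the 34 genes and at 21 of 25 loci, where genes that overlap, and the neighbours Peg3 with Usp29 and H19 with Igf2, were counted as 1 locus. The methylation level of a window is the unweighted mean, over its positions, of the percent of reads that kept a C. By the mean of the 6 libraries, 22 of the 53 windows stood at 30 to 70%, 21 under 30% and 10 over 70%, and in the genome 937 windows stood at 30 to 70%. The windows next to these limits were at 28.2% (Cdkn1c) and 30.1% (Zrsr1 and Commd1) on the lower side, and at 58.0% (H13) and 80.3% (Mest) on the upper side. Because the mean level made the classes, levels near 50% are a description below. The genotype contrast was not used to choose the windows.

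Imprinted genes are expressed mainly from the copy inherited from 1 parent, and at their control regions CpGs are methylated on 1 parental copy and bare on the other. A germline mark is laid down in the egg or the sperm and is then copied at each cell division by DNMT1, with ZFP57 and TRIM28 protecting it from erasure. TET enzymes, which need the 2-oxoglutarate that IDH1 makes, oxidise methylated cytosine, and the mutant form of IDH1 makes 2-hydroxyglutarate, which can inhibit them. In blood, several imprinted genes, among them Cdkn1c, Grb10 and Plagl1, are known to be active in long-term stem cells.

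Methylation came from enhanced reduced representation bisulfite sequencing, which reads CpG-rich restriction fragments after unmethylated C has been converted to T. The 6 libraries came from 3 cell types sorted from the marrow of male C57BL/6 mice aged 7 to 10 months, pooled from 6 mice per group, with 10 ng of DNA per library. Long-term haematopoietic stem cells (LT-HSC) were Lin- Sca+ Kit+ CD150+ CD48-, short-term ones (ST-HSC) Lin- Sca+ Kit+ CD150+ CD48+, and multipotent progenitors (MPP) Lin- Sca+ Kit+ CD150-. KI mice had the genotype IDH1+/lsl VavCre+ and Control littermates IDH1+/+ VavCre+, so all carried the Cre transgene, which the Vav promoter drives in blood cells. Each genotype and cell type had 1 library, so no difference between 2 libraries of a cell type has a replicate check. The pools of mice behind the 3 cell types of a genotype may be the same or different (not given in the sources used here).

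Coverage summed over positions ran from 38284759 to 53884467 reads, and its median per position lay between 27 and 45 in the 6 libraries. No sequencing lane named in the deposited data was used for both genotypes, so in every result below the lane cannot be told apart from the genotype. The sorted cell types could not be checked by marker expression. At 8 of 14 marker genes with windows, the 14 windows had a median level of 3.45%, low alike at the stem cell genes Kit (2.11%) and Hlf (0.936%) and at the erythroid gene Klf1 (2.28 and 3.81%). Pecam1, an endothelial marker also expressed in blood stem cells, had 1 window at 99.1% and 1 at 12.5%. Reads were not assigned to parental copies, so a level near 50% cannot be told apart from a mixture of cells.

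The promoters of 5 members show what the levels below were read from. Each is the RefSeq stretch (GRCm38.p6, the build of mm10) from 250 bases before to 50 after a listed start, 300 bases in all, in the direction of the gene. Capitals mark the CpGs measured in all 6 libraries. Plagl1, Zrsr1 and Igf2r are shown because their measured CpGs stood between the extremes, Mcts2 because a listed imprinted promoter was almost fully methylated, and the upstream start of Grb10 because a start of an imprinted gene was almost bare.
Plagl1, chr10:13090582-13090881, plus strand: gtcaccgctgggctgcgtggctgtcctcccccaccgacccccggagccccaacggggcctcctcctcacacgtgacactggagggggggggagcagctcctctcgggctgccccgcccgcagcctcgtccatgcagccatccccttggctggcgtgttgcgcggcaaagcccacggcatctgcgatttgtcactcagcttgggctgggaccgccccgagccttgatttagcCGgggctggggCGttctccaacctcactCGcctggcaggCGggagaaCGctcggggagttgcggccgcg
Zrsr1, chr11:22971755-22972054, plus strand: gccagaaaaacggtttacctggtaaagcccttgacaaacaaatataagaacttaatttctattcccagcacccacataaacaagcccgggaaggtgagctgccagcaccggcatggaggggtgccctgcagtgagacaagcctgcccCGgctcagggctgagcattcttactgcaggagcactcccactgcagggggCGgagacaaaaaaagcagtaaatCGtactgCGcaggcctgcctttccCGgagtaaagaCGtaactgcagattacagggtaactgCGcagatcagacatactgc
Igf2r, chr17:12769657-12769956, minus strand: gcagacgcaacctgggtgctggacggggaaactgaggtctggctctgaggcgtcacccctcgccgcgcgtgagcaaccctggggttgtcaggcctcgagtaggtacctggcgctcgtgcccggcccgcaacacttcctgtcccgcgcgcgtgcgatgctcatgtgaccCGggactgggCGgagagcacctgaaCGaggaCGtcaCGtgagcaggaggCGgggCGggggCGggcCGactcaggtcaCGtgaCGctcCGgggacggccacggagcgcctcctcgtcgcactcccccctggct
Mcts2, chr2:152686898-152687197, plus strand: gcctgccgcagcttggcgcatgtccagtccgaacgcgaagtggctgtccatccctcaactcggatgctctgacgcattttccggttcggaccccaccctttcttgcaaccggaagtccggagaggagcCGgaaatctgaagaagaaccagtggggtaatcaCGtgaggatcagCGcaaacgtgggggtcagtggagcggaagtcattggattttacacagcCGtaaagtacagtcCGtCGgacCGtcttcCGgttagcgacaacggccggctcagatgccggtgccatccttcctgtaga
Grb10, upstream start, chr11:12037371-12037670, minus strand: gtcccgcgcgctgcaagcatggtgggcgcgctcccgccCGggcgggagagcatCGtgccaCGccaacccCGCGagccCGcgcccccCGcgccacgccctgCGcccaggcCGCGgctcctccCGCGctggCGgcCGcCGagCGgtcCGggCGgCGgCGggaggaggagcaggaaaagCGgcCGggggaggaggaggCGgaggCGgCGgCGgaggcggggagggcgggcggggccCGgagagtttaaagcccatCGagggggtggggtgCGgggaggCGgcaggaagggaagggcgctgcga

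In the Plagl1 promoter, 5 of 26 CpGs were measured, all near the start, and their mean level read 10.1, 50.1 and 60.6% in Control mice, given as LT-HSC, ST-HSC, then MPP. The KI libraries read 31.7, 48.6 and 20.7% in the same order, as do all sets of 3 values below. In the Igf2r promoter, 12 of 34 CpGs were measured, with a mean over libraries of 39.1%. The 8 measured CpGs of the Mcts2 promoter had a mean of 97.3%, and the 31 measured positions at the upstream start of Grb10 had 2.95%. The same class of element thus gave intermediate, full and near-zero levels within the set. Of the 34 genes, 27 had a promoter in the RefSeq table, with 43 starts in all, and 11 of these starts at 9 genes had measured positions. TGCCGC, the letters of the known ZFP57 site, occurred on either strand in 11 of the 43 promoters and in 11.6% of all 32851 promoters in the table, and the median number of CpGs per promoter was 13 against 7.

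The windows at 30 to 70% lay at 14 loci and 20 of the 34 genes. Loci were split by the parental copy that, in textbooks, carries the germline mark of the locus. Of 16 loci listed as marked in the egg, 11 had such a window, 18 windows in all, with a median level of 43.3%. The label is that of the locus, so these windows are not all germline marks. They include the Igf2r window, described below as gaining its mark after fertilisation, and an H13 window in which no position itself stood at 30 to 70%. None of the 4 loci listed as marked in the sperm had one. Among these, Meg3 had no window of any level, and the windows of H19 and Igf2 were all at Igf2. A window at H19 outside the comparisons stood at 45.6%, as given under the other observations. The count therefore does not give the level of the control regions marked in the sperm. Of 5 loci with no germline mark listed, 3 had such windows, 4 in all, with a median of 34.9%. Most of the 22 windows lay below 50%, with 19 of 22 there, against 55.0% of the other 915 windows of that class. Their positions were also more alike within a window. A median of 89.2% of the positions of an imprinted window stood at 30 to 70% themselves, against 60% in the other windows, and the median SD over positions was 17.4 points against 23.2. These contrasts were described and not tested.

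**Figure D1:**
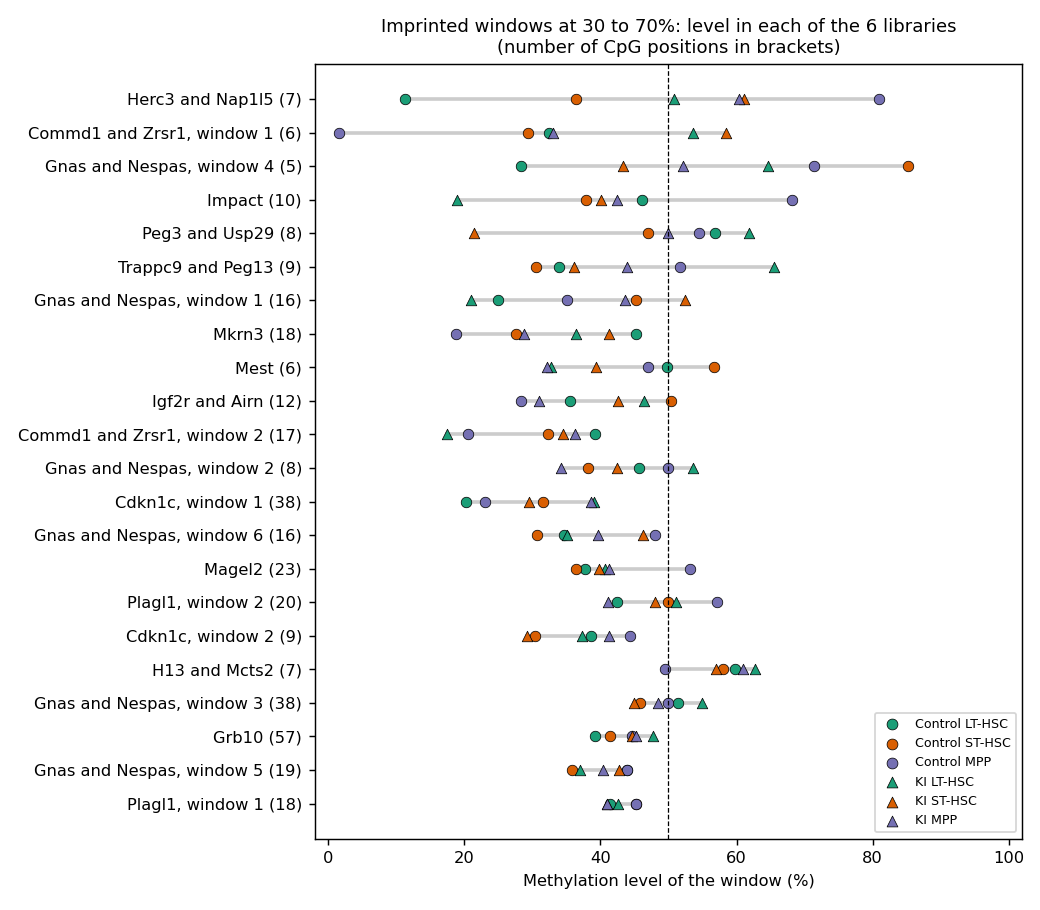
Methylation level in percent (x axis) of each of the 22 imprinted windows at 30 to 70% (rows, with the number of CpG positions in brackets) in each of the 6 libraries; circles are Control, triangles KI, colours the cell types, grey lines the range and the dashed line 50%. Rows are ordered by range, from 69.7 points at Herc3 and Nap1l5 to 4.34 points at window 1 of Plagl1, and the wide rows mostly have few positions.

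The growth regulators Grb10 and Plagl1 were measured at 18 or more positions in each window at 30 to 70%. Grb10, an adaptor that dampens insulin and growth factor receptor signalling, was measured at 57 positions of chr11:12026001-12027000, which lies 971 bases inside its downstream start. The level there was 39.2, 41.3 and 44.6% in Control, against 47.7, 44.7 and 45.3% in KI. Every KI library lay above every Control library, by as little as the step from 44.6 to 44.7%, and the whole range was 8.46 points. In pooled reads the levels were 44.2, 40.5 and 48.2% in Control, against 50.4, 46.1 and 43.1% in KI. With that weighting the genotypes overlapped, and MPP was lower in KI. Plagl1, a zinc finger factor that restrains growth, gave 42.4, 49.9 and 57.1% in Control, against 51.1, 48.0 and 41.2% in KI at 20 positions of chr10:13091001-13092000. The adjoining Plagl1 window, which holds the promoter printed above, stayed between 40.9 and 45.3% over 18 positions, although its strands ran from 25.1 to 45.2% (forward) and from 35.3 to 66.1% (reverse). The genotypes overlapped in both Plagl1 windows, and in the first of these the order of the cell types ran in opposite directions in the 2 genotypes.

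Igf2r, the receptor that clears insulin-like growth factor 2, and Cdkn1c, an inhibitor of the cell cycle that keeps stem cells quiescent, sat somewhat lower. Both are regions that gain their mark on the paternal copy after fertilisation. At Igf2r and Airn the 12 positions of chr17:12769001-12770000, all inside the promoter printed above, gave 35.6, 50.4 and 28.3% in Control, against 46.4, 42.6 and 31.0% in KI. The MPP libraries were the lowest of both genotypes. At Cdkn1c the 9 positions of chr7:143460001-143461000 gave 38.5, 30.4 and 44.3% in Control, against 37.4, 29.2 and 41.3% in KI. Here the 2 genotypes followed the same order of cell types within 3.06 points, but the strands of this window gave opposite signs. KI minus Control was 6.04, -29.1 and -30.3 points at the 3 forward positions. It was -4.80, 12.9 and 10.5 points at the 6 reverse positions. The adjoining Cdkn1c window, with 38 positions, ran from 20.3 to 39.0%. Mest, an enzyme of the mesoderm whose gene is expressed from the paternal copy, is described with the genotype comparison below.

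The locus of Gnas and its antisense RNA Nespas, which codes for the G protein subunit that activates adenylyl cyclase and for several other transcripts from separate starts, held 8 windows, 6 of them at 30 to 70%. The window of both genes nearest to 50%, chr2:174299001-174300000 with 38 positions, gave 51.4, 45.8 and 50% in Control, against 55.0, 44.9 and 48.5% in KI, a range of 10.1 points. The other windows at 30 to 70% had mean levels of 37.0 to 57.5%. The widest spread within the locus was in the next window, chr2:174300001-174301000, where 5 positions on 1 strand ran from 28.3% in Control LT-HSC to 85.2% in Control ST-HSC. At the start of the Gnas transcript itself, 91 positions of chr2:174330001-174331000 had a mean level of 2.02%, and the window before it 3.95%. The locus therefore stepped from intermediate levels to almost none between neighbouring windows, at the same place in all 6 libraries.

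**Figure D2:**
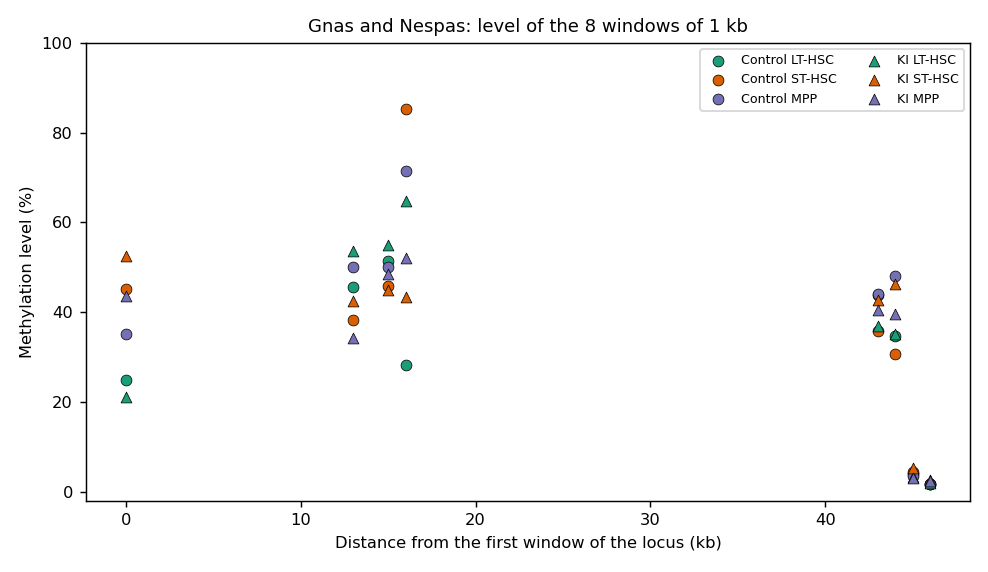
Methylation level in percent (y axis) of the 8 windows at Gnas and Nespas against distance in kb from the first window (x axis), 1 point per library, with circles for Control and triangles for KI. The 6 windows on the left lie at intermediate levels in nearly all libraries, and the last 2 windows lie near 4 and 2%.

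The retrogenes Nap1l5 and Zrsr1, each inside a host gene, scattered widely. Nap1l5, a nucleosome assembly protein gene inside Herc3, gave 11.3, 36.4 and 81.0% in Control, against 50.8, 61.0 and 60.3% in KI at 7 positions of chr6:58906001-58907000. This was the widest range of the 22 windows, 69.7 points, and it was spanned by the Control libraries. Zrsr1, a splicing factor gene inside Commd1, gave 32.5, 29.3 and 1.54% in Control, against 53.6, 58.4 and 33.1% in KI at 6 positions of chr11:22971001-22972000. Its second window, with 17 positions, ran from 17.4 to 39.3%. H13, a signal peptide peptidase that hosts Mcts2, had 1 window of the class, chr2:152696001-152697000, at 59.8, 58.0 and 49.4% in Control, against 62.7, 56.9 and 61.0% in KI. None of its 7 positions stood at 30 to 70% by the mean of the libraries, so this level is an average over methylated and bare CpGs and not an intermediate state of each.

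Impact, a regulator of the translation response to amino acid starvation, gave 46.1, 37.8 and 68.1% in Control, against 19, 40.1 and 42.4% in KI at 10 positions. Peg3, a zinc finger gene that shares its start region with Usp29, gave 56.8, 47.0 and 54.6% in Control, against 61.8, 21.4 and 50% in KI at 8 positions of chr7:6730001-6731000. At Impact, Control MPP stood above and KI LT-HSC below the other 4 libraries, and at Peg3 KI ST-HSC stood below the rest. Peg13, a noncoding RNA inside Trappc9, gave 33.9, 30.5 and 51.8% in Control, against 65.5, 36.1 and 43.9% in KI at 9 positions of chr15:72809001-72810000. KI LT-HSC was the highest library there. In pooled reads it stood at 46.6% and Control MPP at 50%, so the order turned with read weighting, and the mean genotype difference went from 9.79 to 0.439 points.

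Magel2 and Mkrn3 belong to the cluster whose human counterpart is lost in Prader-Willi syndrome, where Magel2 acts in protein recycling and Mkrn3 restrains puberty. Magel2 gave 37.8, 36.4 and 53.2% in Control, against 40.7, 39.8 and 41.3% in KI at 23 positions of chr7:62377001-62378000. Mkrn3 gave 45.2, 27.7 and 18.7% in Control, against 36.5, 41.2 and 28.7% in KI at 18 positions of chr7:62419001-62420000. Control MPP was thus the highest of the 6 libraries at Magel2 and the lowest at Mkrn3. Peg12, in the same cluster, stood below the class, at 20.2% over 13 positions and 23.7% over 46.

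The range over the 6 libraries went with the number of positions in a window. It had a median of 35.0 points in the 9 imprinted windows with 5 to 9 positions, 21.9 points in the 8 with 10 to 19 and 15.9 points in the 5 with 20 or more. The other windows at 30 to 70% had 28.1, 22.8 and 18.1 points in the same classes. Spearman's rho between range and number of positions was -0.645 over the 22 windows and -0.181 over the 915, where all points share the 6 libraries. In 11 of the 22 windows, all 6 libraries stayed within 30 to 70%, which held for 28.5% of the others. The imprinted windows had a median of 14 positions and the others 7, so these shares are not at like numbers of positions. Control MPP was the highest library in 8 of the 22 windows and lay a median of 8.35 points from the mean of the window, the farthest of the 6, while KI MPP was the highest in 0 windows and lay nearest, at 3.64 points. Control MPP was also the lowest in 4 windows, and KI LT-HSC was the highest in 7. How often each library was highest or lowest was not counted in the other windows of the class, so these counts have no background share. In those other windows the median distances from the window mean were 7.45 points for Control MPP and 6.61 points for KI MPP. There Control LT-HSC lay farthest, at 8.01 points.

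**Figure D3:**
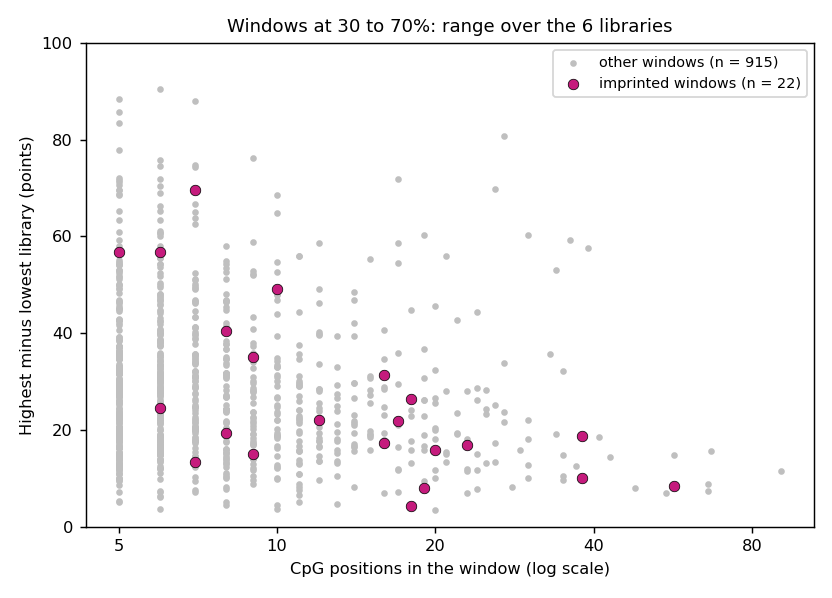
Range over the 6 libraries, highest minus lowest in percentage points (y axis), against the number of CpG positions in the window (x axis, log scale), for the 22 imprinted windows (large points) and the 915 other windows at 30 to 70% (small points). The imprinted windows fall from a median of 35.0 points at 5 to 9 positions to 15.9 points at 20 or more, inside the cloud of the others.

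Windows outside 30 to 70% have less room to vary, being nearer to 0 or 100%. The 21 windows under 30% had a median range over the libraries of 5.75 points and a highest of 16.9, and the 10 over 70% a median of 5.54 points and a highest of 41.4. The last was at H13, in the window chr2:152707001-152708000, where Control LT-HSC stood at 57.5% and Control MPP at 98.9%. Levels under 10% were found, among others, at Grb10 (3.50%), Commd1 (3.57%), Igf2 (2.12% over 67 positions), Dlk1 (6.76%), Rasgrf1 (2.86%), Herc3 (2.41%), Inpp5f (2.41%), Nnat (9.51%), Kcnq1 (6.77%) and Trappc9 (3.62 and 4.09%). Windows over 70% lay in Trappc9 (98.1 to 99.0%), Igf2 (98.0%), Kcnq1 (98.9%), Peg3 (98.0%), Igf2r and Airn (90.0%), Mest (80.3%), Mcts2 (97.3%) and H13 (86.0%). Mcts2 is in this class although its promoter is listed as marked in the egg, and no library fell below 91.2% there. Mcts2 is a retrogene copy of Mcts1, and whether reads from related sequence entered these values was not tested. The genes Snrpn, Ndn, Meg3 and Slc38a4, and H19 and Kcnq1ot1 within their loci, had no window.

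The question of the genotype comparison was whether levels at imprinted loci differed between KI and Control cells. At the 22 windows at 30 to 70%, KI stood above Control at 15 (LT-HSC), 12 (ST-HSC) and 8 (MPP) windows, with median differences of 3.26, 2.28 and -3.91 percentage points. The other 915 windows of the class had medians of 5.22, 10.1 and 6.49 points, with 67.9, 81.1 and 69.0% of them higher in KI. With 1 window per locus, the nearest to 50%, the medians over 14 loci were 4.27, 0.681 and -3.83 points, with 10, 7 and 5 loci higher. The imprinted median was below that of the other windows in all 3 cell types, and in MPP it had the opposite sign. The sign in ST-HSC did not hold among positions with at least 20 reads, where the median was -1.20 points, and the gap between the sets was not tested.

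**Figure D4:**
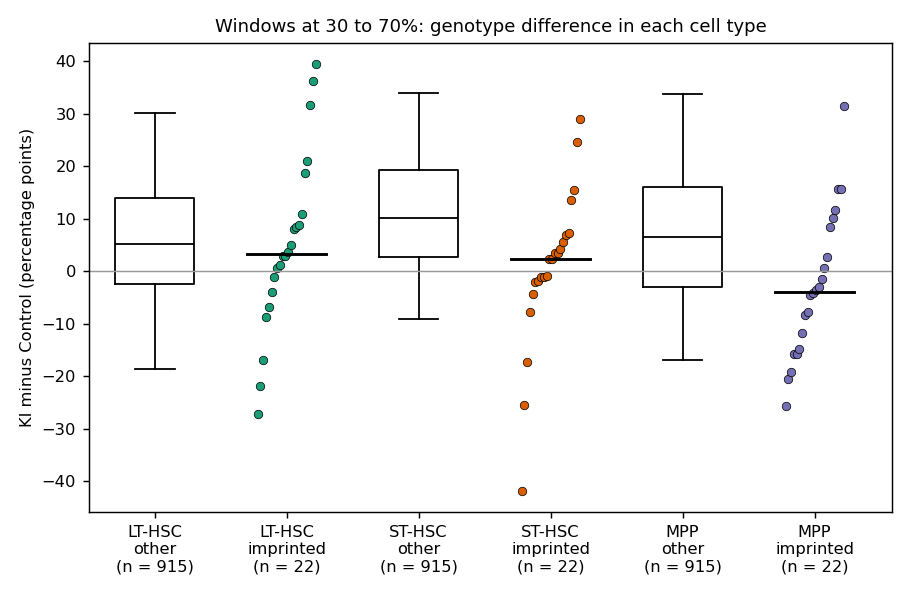
KI minus Control in percentage points (y axis) in each cell type for the 22 imprinted windows at 30 to 70% (points, with their median as a line) and for the 915 other windows of that class (boxes between the quartiles with the median, whiskers from the 5th to the 95th percentile). The imprinted medians are 3.26, 2.28 and -3.91 points and the medians of the other windows 5.22, 10.1 and 6.49 points.

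Differences of 10 points or more were spread over many of the loci and ran both ways. Among LT-HSC, 6 of the 22 lay at least 10 points higher in KI, as did 34.3% of all 937 windows of the class, and 3 lay at least 10 points lower (12.1% of the class). In ST-HSC the counts were 4 higher (49.4%) and 3 lower (4.91%), and in MPP 5 higher (41.3%) and 7 lower (12%). The largest of these differences were 39.5 points at Nap1l5 in LT-HSC, -41.8 points at the 5-position Gnas window in ST-HSC and 31.6 points at Zrsr1 in MPP. Of all 53 imprinted windows, LT-HSC had 8 higher (3.76% of all 25123 windows) and 5 lower (1.63%). ST-HSC had 4 higher (5.07%) and 3 lower (0.665%), and MPP 6 higher (5.44%) and 8 lower (1.74%). With at least 10 positions, 6, 2 and 7 of 32 windows were past 10 points in either direction, against 13, 7 and 14 of 53 with at least 5.

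In limma with the cell type as a block, 0 of the 53 imprinted windows passed between KI and Control at an adjusted p under 0.05, where 2 of 25123 windows did (0.00796%). The lowest adjusted p of an imprinted window was 0.599. At an unadjusted p under 0.05 there were 4 imprinted windows, at Zrsr1, Mest, Igf2 and Commd1, and 6.99% of all windows. That test reads the spread between cell types and libraries, since there are no replicate pools.

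Zrsr1 and Mest were the loci where 1 window kept its direction by 10 points or more throughout the 3 cell types, higher in KI at Zrsr1 and lower at Mest. Of the 937 windows of the class, 12.7% were higher and 0.64% lower by that rule, and of all windows 0.896% and 0.0517%. At Zrsr1, whose 6 positions end at the start of the gene and all lie in the promoter printed above, KI exceeded Control by 21.1 points (LT-HSC), 29.0 points (ST-HSC) and 31.6 points (MPP), a mean of 27.2 points (SD 5.47 over the 3 cell types). The pooled reads count a read once for each CpG it covers, so their 95% Wilson intervals are too narrow. For LT-HSC the intervals were 31.7 to 41.5% in Control against 45.3 to 55.2% in KI. They were 27.1 to 39.6% against 50.3 to 63.4% for ST-HSC, and 1.36 to 7.19% against 27.2 to 39.2% for MPP. All 3 KI libraries lay above all 3 Control libraries, as at Grb10, so 2 of 22 windows had this order against 23.7% of the class. In pooled reads neither window kept it, and at Zrsr1 KI MPP then stood at 32.9% and Control LT-HSC at 36.4%. The log2 difference in limma was 1.96 (SE 0.57, adjusted p 0.599). The adjoining Zrsr1 window, from base 22972001 on, did not follow, with differences of -21.8, 2.33 and 15.6 points. On a grid moved by 500 bases, the 18 positions around the start differed by -19, 19.1 and 23.8 points, so the sign in LT-HSC turned with the placing of the windows.

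At Mest, 6 positions of chr6:30739001-30740000, which begins 948 bases inside the downstream start of the gene, were lower in KI. Control stood at 49.8, 56.7 and 47.1% and KI at 32.8, 39.4 and 32.2%. The differences were -17.0, -17.3 and -14.9 points, a mean of -16.4 points (SD 1.33), and all 3 KI libraries lay below all 3 Control libraries, the 1 of 22 windows in that order against 1.92% of the class. The Wilson intervals, too narrow for the same reason as at Zrsr1, were 43.4 to 55.2% against 28.9 to 36.3% for LT-HSC. They were 51.6 to 61.8% against 34.2 to 43.5% for ST-HSC, and 42.1 to 53.5% against 26.7 to 37.6% for MPP. The limma log2 difference was -1.01 (SE 0.35, adjusted p 0.646). With each position thinned to 10 reads, the MPP difference was -8.33 points and the window no longer met the rule. The size of the fall was alike in the 3 cell types, yet it came from different strands, as the next paragraphs give.

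Differences of any size in 1 direction were counted as well. Higher in KI in all 3 cell types were Zrsr1 and Grb10, 2 of 22 windows against 41.3% of the class, and lower were Mest and a Cdkn1c window, 2 of 22 against 4.8%. At Grb10 the differences were 8.46, 3.36 and 0.650 points, and at Cdkn1c they were -1.19, -1.12 and -3.06 points. Neither of these 2 windows kept its direction in all 3 cell types with read weighting. At Grb10 in MPP, pooled reads gave 48.2% in Control and 43.1% in KI. At Cdkn1c the mean difference went from -1.79 to 1.5 points with read weighting, and to 7.78 points with each position thinned to 10 reads. As a comparison of 2 libraries only, a Fisher exact test on reads with Benjamini-Hochberg adjustment, together with a difference of 10 points or more, called 4 windows higher and 3 lower between the LT-HSC libraries, 2 and 3 between those of ST-HSC, and 5 and 6 between those of MPP. In the class as a whole 28.4 and 8.43%, 40.2 and 2.88%, and 33.2 and 9.07% were called. The test counts a read once for each CpG it covers, so these calls overstate the number of independent reads.

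Between MPP and LT-HSC, no imprinted window passed either. In limma 0 of 53 windows, and 0 of all 25123 (0%), had an adjusted p under 0.05, the lowest at an imprinted window being 0.523, and 4 imprinted windows and 7.44% of all had an unadjusted p under 0.05. MPP exceeded LT-HSC at 14 of 22 windows in Control (median 4.13 points) and at 8 of 22 in KI (median -1.66 points), where the other windows of the class had medians of 4.36 and 4.94 points. By at least 10 points, MPP was higher at 8 windows (37% of the class) and lower at 4 (19.5%) in Control, and higher at 3 (35.8%) and lower at 6 (11%) in KI. In both genotypes 2 windows were higher (19.3%) and 1 lower (4.91%). The last was the Zrsr1 window, with a log2 difference of -2.46 (SE 0.69, adjusted p 0.532). Whether the step from stem cell to progenitor differed between the genotypes at these windows was not tested.

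The strands of a CpG normally carry the same mark, since the maintenance enzyme copies it from one strand to the other. Of the 22 windows, 20 had at least 2 positions on each strand, and there the strand levels were often far apart, although the positions on the strands of a window are only partly the same CpGs. The median distance between forward and reverse was 20.6, 12.6 and 26.3 points in the Control libraries and 8.66, 9.84 and 9.21 points in those of KI. The distance between genotypes at the same windows had medians of 8.2, 4.27 and 10.8 points, below the strand distances in Control. These are unlike measures, since a strand level rests on part of the positions of a window and the genotype distance on all of them. In the other windows of the class the strand distance was 15.7, 14.8 and 19.4 points in Control and 15, 13.4 and 13.7 points in KI. At least 20 points separated the strands at 11, 6 and 12 of the 20 windows in Control and at 6, 6 and 3 in KI. No such count was made in the other windows of the class, so these counts have no background share.

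**Figure D5:**
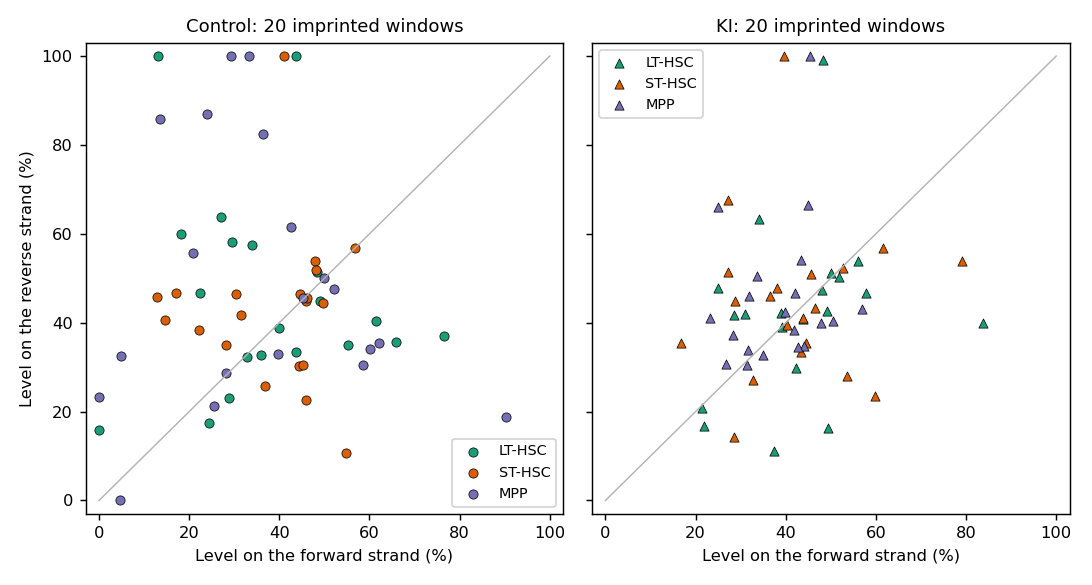
Level on the reverse strand (y axis, percent) against the level on the forward strand (x axis, percent) for the 20 imprinted windows with at least 2 positions on each strand, Control on the left and KI on the right, 1 point per window and library with colours for the cell types and a line where the strands are equal. Points lie farther from the line in Control LT-HSC and MPP (medians of 20.6 and 26.3 points) than in the KI libraries (8.66 to 9.84 points).

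Single loci show the size of this. At Peg3 in Control MPP the forward strand stood at 90.3% and the reverse at 18.9%, and at Impact in the same library at 24.0 and 87.0%. At Nap1l5 in Control MPP all 5 reverse positions were at 100%, on 12 to 15 reads each, and the forward positions at 33.3%. The reads of neighbouring positions were shared as well. In the 5-position Gnas window every position of Control ST-HSC had 31 reads and stood at 83.9 or 87.1%, so the positions of a window are not independent measurements.

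The strands gave opposite signs of the genotype difference at 12, 9 and 11 of 20 windows. The same count was not made for the other windows of the class, so it cannot be read as particular to imprinted windows. At Mest the fall was on the reverse strand in LT-HSC, -35.1 points against 1.09 on the forward strand. In ST-HSC it was mainly on the forward strand, -29.4 against -5.28 points, and in MPP the forward strand fell by 36.8 points while the reverse stood 6.99 points higher. At Zrsr1 both strands were higher in KI in every cell type, by 1.26, 24.9 and 27.0 points on the forward strand and by 31.0, 31.1 and 33.8 points on the reverse. The part of these strand distances in the genotype and cell type differences was not tested.

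Among 37 further imprinted genes, 25 had a window, 50 windows in all. Of these, 3 stood at 30 to 70%, where 937 of all 25123 windows did, at Begain (48.5% over 37 positions), Rian (65.0%) and Ago2 (66.0%). Begain, beside the Dlk1 and Meg3 genes, differed by 2.85, 8.85 and 11.6 points between KI and Control. Ago2, the slicing protein of the microRNA pathway, whose window has 5 positions, was higher in KI by 34.6, 28.7 and 12.3 points. It was the 1 window of the 50 past 10 points in all 3 cell types. Upwards, that rule was met by 0.896% of all windows and by 12.7% of the 937 at 30 to 70%, the class of the Ago2 window. Over the 50 windows the median differences were 0.448, 0.861 and 1.20 points. Of 18 genes that lay down, read or remove imprints, such as Dnmt1, Uhrf1, Trim28 and Tet2, 15 had a window, and of the 36 windows 0 stood at 30 to 70% and 0 were past 10 points in all 3 cell types. Their median level was 2.77%, with median differences of 0.205, -0.00199 and 0.883 points. In limma 0 windows of either list passed for genotype or cell type.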

How the data were processed

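Members, gene lists and tests were chosen with earlier results of these data known. Per the submitters' processing notes, Bismark 0.10.0, SAMtools 1.0 and methylKit 0.9.1 were used with mm10. Settings, duplicate removal and conversion rate: not given in the sources used here. Coverage is deposited as read counts per position, at least 10 in each library, per the file headers and values. The deposited methylation is the percent of reads with C or T, per the file headers. Percent times coverage gave whole reads at 100% of positions, within 0.01% of the coverage. Of 1352372 positions, 552338 were covered in all 6 libraries; their strands were kept apart.

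Gene extents and promoters came from RefSeq tables of GRCm38.p6. Windows of 1 kb (25123 with at least 5 positions) entered limma 3.58.1 (R 4.3.3) on log2 of methylated over unmethylated reads, with 1 added to each, a variance trend and a block for cell type (genotype for MPP against LT-HSC). P-values were Benjamini-Hochberg adjusted over all windows; 0.05 was the threshold, and 0.01 in the Fisher test on reads. The script was tested on simulated data. Wilson intervals on pooled reads cover counting error only. They count a read once for each CpG it covers, so they are too narrow even for that. Every member with a window at 30 to 70% was named with its window nearest to 50%, and so were members past 10 points in all 3 cell types. Alternatives were read weighting, coverage, positions, strand merging, thinning, flanks, grid, thresholds, band limits, prior counts, scale, block and libraries left out.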

Additional observations from a re-analysis of the deposited data

Results flagged for a closer look

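At 3 imprinted windows, the genotype difference had opposite signs in different cell types and both differences were large. In the second Zrsr1 window (chr11:22972001-22973000, 17 positions) the KI level differed from Control by -21.8 points (LT-HSC), 2.33 points (ST-HSC) and 15.6 points (MPP), so the highest and lowest cell types were 37.5 points apart. In the 5-position Gnas window (chr2:174300001-174301000) the differences were 36.3, -41.8 and -19.3 points, 78.1 points apart. At Nap1l5 (7 positions) they were 39.5, 24.6 and -20.6 points, 60.1 points apart. With 1 library per genotype and cell type, whether the difference changes between cell types was not tested at any of the 3 windows. How many other windows of the genome met the same description was not counted. Opposite signs of this size therefore cannot be read as particular to imprinted windows.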

How the results depend on the processing

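The count of imprinted windows at least 10 points apart between genotypes was 13 (LT-HSC), 7 (ST-HSC) and 14 (MPP), 2 windows were so in 1 direction in all 3 cell types, and 22 windows stood at 30 to 70%. With at least 10 positions per window, which left 32 of 53 windows, these values were 6, 2, 7, 0 and 13. At a coverage of at least 20, MPP had 7. Thinned to 10 reads per position, LT-HSC had 20 and all 3 cell types 1, and with the grid moved by 500 bases ST-HSC had 11 and all 3 cell types 1. A threshold of 5 points gave 20 for LT-HSC and 17 for ST-HSC, and one of 20 points gave 6, 4, 3 and 1. Limits of 40 to 60% left 14 windows and a median difference in MPP of -9.85 points. Read weighting, merged strands and flanks of 0 or 10 kb kept each of these counts within 1.5 times. Across all alternatives the median difference of the windows at 30 to 70% was 1.23 to 4.94 points (LT-HSC), -1.20 to 3.50 points (ST-HSC) and -9.85 to -1.49 points (MPP). In each of the 9 settings in which the other windows of the class were recomputed, the imprinted median was below theirs in every cell type. Taking 1 window per locus was chosen after the data were seen. The mean difference of single windows stayed within the spread over cell types in 93 of 98 recomputations and moved beyond it in 5. That spread is the window's own SD over the 3 cell types, so a window with a wide spread can hardly move beyond it. At Peg13 the mean difference went from 9.79 to 0.439 points with read weighting and still counted as within the spread. The count of 93 therefore does not show that the differences were stable. Over the limma alternatives 0 imprinted windows passed for either comparison, with lowest adjusted p-values of 0.349 to 0.762 for genotype and 0.249 to 0.773 for cell type, and 2 to 6 and 1 to 6 imprinted windows at an unadjusted p under 0.05. The labels give no replicate numbers; the cell type block pairs KI with Control within each cell type, and without it 2 imprinted windows in place of 4 had an unadjusted p under 0.05.

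Positions of a window share reads, so a window of 5 to 9 positions can rest on few fragments, and the read intervals do not cover this. Lane, pool and genotype cannot be told apart, parental copies were not resolved, and no value here covers the spread between mice. Windows whose positions were missing in 1 or more libraries were left out of the comparisons.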

Other observations

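Several of the best known imprinted control regions were read in most libraries but not in all 6 at the same positions, and so stand outside the comparisons above. Among 31 windows at the 34 genes with at least 5 positions in 4 or more libraries and fewer than 5 shared by all, 13 had a mean level of 30 to 70%. Levels in such windows rest on different positions in different libraries and are not compared between genotypes. At Snrpn, whose control region is lost in Prader-Willi syndrome, the window chr7:60005001-60006000 had a mean of 46.2% over 4 libraries, with a range of 34.7 to 66.3%. At H19, the noncoding RNA that shares its control region with Igf2, the mean was 45.6% over 5 libraries (33.9 to 63.7%), and this is a locus listed as marked in the sperm. At Slc38a4, an amino acid transporter, it was 48.5% over 5 libraries (38.4 to 64.5%).

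Nnat, a membrane proteolipid gene inside Blcap, had means of 36.2% over 5 libraries and 50.4% over 6 in adjoining windows. Inpp5f, a phosphoinositide phosphatase with an imprinted start inside the gene, had 40.8% over 5 libraries. In the Kcnq1ot1 window chr7:143295001-143296000, the start region of the noncoding RNA that silences Cdkn1c in cis, the mean was 35.5% over 6 libraries. The level there ran from 6.38% in KI LT-HSC (11 positions) to 48.5% in Control LT-HSC (19 positions). The Mcts2 promoter extended the high level printed in the report, with a mean of 95% over 5 libraries in the window before it; reads from related sequence were not examined. These values carry no test.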
